A study of Mus musculus with 11 samples.

Results

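The genes described are 10 imprinted genes or direct neighbours of imprinted genes in mouse embryonic stem cells: Nnat with Blcap, Peg3 with Usp29, Peg10 with Sgce, and Mest, Impact, Plagl1 and Grb10. They were found by symbol in the deposited tables. All 10 were found among the 55228 symbols of the table and all 10 had enough counts to be tested, as did 16420 symbols in all. RNA was sequenced from the EN52.9.1 (CTCF-AID) line, in which the endogenous CTCF protein carries an auxin-inducible degron, grown in serum with leukaemia inhibitory factor. EV untreated (3 libraries) had no auxin and carries the genotype label untreated (wild-type), although these cells hold the degron allele as well. The other groups received 500 µM of the auxin indole-3-acetic acid. These were EV auxin (2 libraries), labelled as depleted of endogenous CTCF, FL auxin (3 libraries), with FL CTCF put back, and H373R auxin (3 libraries), with H373R CTCF put back. ZF4 stands in the titles of the H373R libraries in place of that name. The meaning of EV and the duration of the auxin treatment are not given in the sources used here, and the single parental line limits every group as a model. The labels do not say whether replicates were separate cultures, so the p-values measure only the spread between these libraries, which may be technical.

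Imprinted genes are transcribed mainly from the copy inherited from 1 parent. The choice is set by DNA methylation placed on control regions in the egg or the sperm, and kept after fertilisation by factors such as ZFP57, TRIM28 and DNMT1. CTCF binds some control regions on their unmethylated copy and can separate enhancers from promoters there. Nnat, Peg3, Usp29, Peg10, Sgce, Mest, Impact and Plagl1 are known as genes read from the paternal copy, Grb10 is read from the maternal copy in most tissues, and Blcap is the host gene around Nnat. Counts per gene do not separate the parental copies, so the levels below are sums over both. In bulk RNA, fewer cells with a transcript and less of it per cell cannot be told apart.

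The 3 pairs have different layouts in GENCODE M21 (GRCm38). Nnat (chr2:157560078-157562522, plus strand) lies inside Blcap (chr2:157556362-157571274, minus strand), with 0 bases of shared exon. Peg3 (chr7:6703892-6730431, minus strand) and Usp29 (chr7:6730578-6967219, plus strand) start head to head with 146 bases between them. Peg10 (chr6:4747306-4760517, plus strand) and Sgce (chr6:4674350-4747207, minus strand) also start head to head, 98 bases apart. Of the single genes, Mest covers chr6:30723547-30748465 (plus strand), Plagl1 chr10:13060504-13131694 (plus strand) and Grb10 chr11:11930508-12038683 (minus strand). Mest shares 912 exonic bases with Copg2 on the opposite strand, and Usp29 shares 2582 with Zim3 on the opposite strand. The library kit marks strand, but whether the counting used it is not given in the sources used here, so reads in these overlaps may have been given to either gene or to none.

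The 3 promoter stretches below are shown because Nnat and Peg3 passed the test where the neighbour on the same DNA did not, and because Mest was higher with H373R than with FL CTCF. They were read from the RefSeq promoter table of GRCm38.p6, on the plus strand, 5′ to 3′, with each CpG dinucleotide, whose cytosine carries the methylation of imprints, in capitals. The first is the whole interval between the annotated starts of Peg3 and Usp29 (chr7:6730432-6730577), with 5 CpGs in 146 bases. The second is the 70 bases before the start of Nnat (chr2:157560008-157560077), with 4 CpGs, in an intron of 3 Blcap transcripts. The third is 150 bases before a Mest start (chr6:30737900-30738049), with 11 CpGs, in introns of 4 longer Mest transcripts.
Peg3-Usp29 interval: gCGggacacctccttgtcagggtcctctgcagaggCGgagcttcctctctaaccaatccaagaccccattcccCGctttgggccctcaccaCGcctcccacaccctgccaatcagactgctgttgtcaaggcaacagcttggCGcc
Nnat: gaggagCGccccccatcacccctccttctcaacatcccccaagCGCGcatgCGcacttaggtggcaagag
Mest: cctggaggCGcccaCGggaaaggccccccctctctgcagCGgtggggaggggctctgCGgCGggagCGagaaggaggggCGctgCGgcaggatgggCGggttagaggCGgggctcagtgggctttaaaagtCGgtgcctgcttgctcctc
RefSeq windows of 300 bases around the start were at hand for 7 of the 10 genes (10 windows). The windows of Peg3, Usp29, Nnat and Blcap held 13, 17, 17 and 17 CpGs, above the median of 7 over 32851 mouse windows. Both strands were searched for AGNNGGC, a short piece of the CTCF motif, for a longer core of that motif that contains it, and for GCCATNTT, a core of the YY1 motif. The short piece was in 8 of the 10 windows, all but those of Peg3 and Usp29, and in 59.8% of all windows. The longer CTCF core and the YY1 core were in 0 of the 10 windows, and in 2.43% and 6.05% of all windows. The windows of Peg3 and Usp29 overlap, as do 2 of the 3 windows of Mest, and the control regions themselves were not searched.

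The libraries held 13465241 to 29902246 counts. Ctcf RNA was at 294 to 364 CPM in all 11 libraries, where CPM is the count scaled to library size with TMM factors. The degron acts on the protein, so this RNA does not check the depletion. Ctcf was at 328 to 350 CPM in FL auxin and 306 to 330 in H373R auxin, against 364 and 359 in EV auxin. These counts therefore do not show the CTCF put back, and whether both forms were present in equal amounts was not tested. EV untreated replicate 1 stood apart, with a chi-square per degree of freedom of 15.6 and 14.9 against its replicates and 1.93 between those, and its deviations followed the GC content of genes (Pearson r = 0.58 across 16242 genes, which are not independent). Where it changes a call against EV untreated, the value without it is given as well. Embryonic stem cell markers summed to 11637 to 12576 TPM (a level scaled to gene length and library size) in every library. Among markers of other cell types, the mean over the 11 libraries was under 0.1 TPM for Elf5 (trophoblast), Neurog2 (neural), and Postn, Dcn and Lum (fibroblast). No primitive endoderm marker was that low, and no marker was at 0 in all libraries. Other markers of these cell types were expressed. Per library, the neural markers summed to 306 to 442 TPM and the trophoblast markers to 96.9 to 142 TPM. The fibroblast markers summed to 47.4 to 71.3 TPM and the primitive endoderm markers to 18.7 to 68.6 TPM.

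The genes spanned a wide range of levels. On the TPM scale, averaged over the 11 libraries, Grb10 was highest at 137 TPM, followed by Peg10 at 91.8, Impact at 85.2, Blcap at 42.7, Mest at 31.9, Peg3 at 24.1 and Nnat at 23.7. Usp29 at 2.77, Sgce at 1.61 and Plagl1 at 1.14 TPM were low. Each low gene is measured less precisely: Plagl1 rested on 26 to 104 counts per library and Sgce on 54 to 141, whereas Grb10 had 4977 to 9636.

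**Figure D1:**
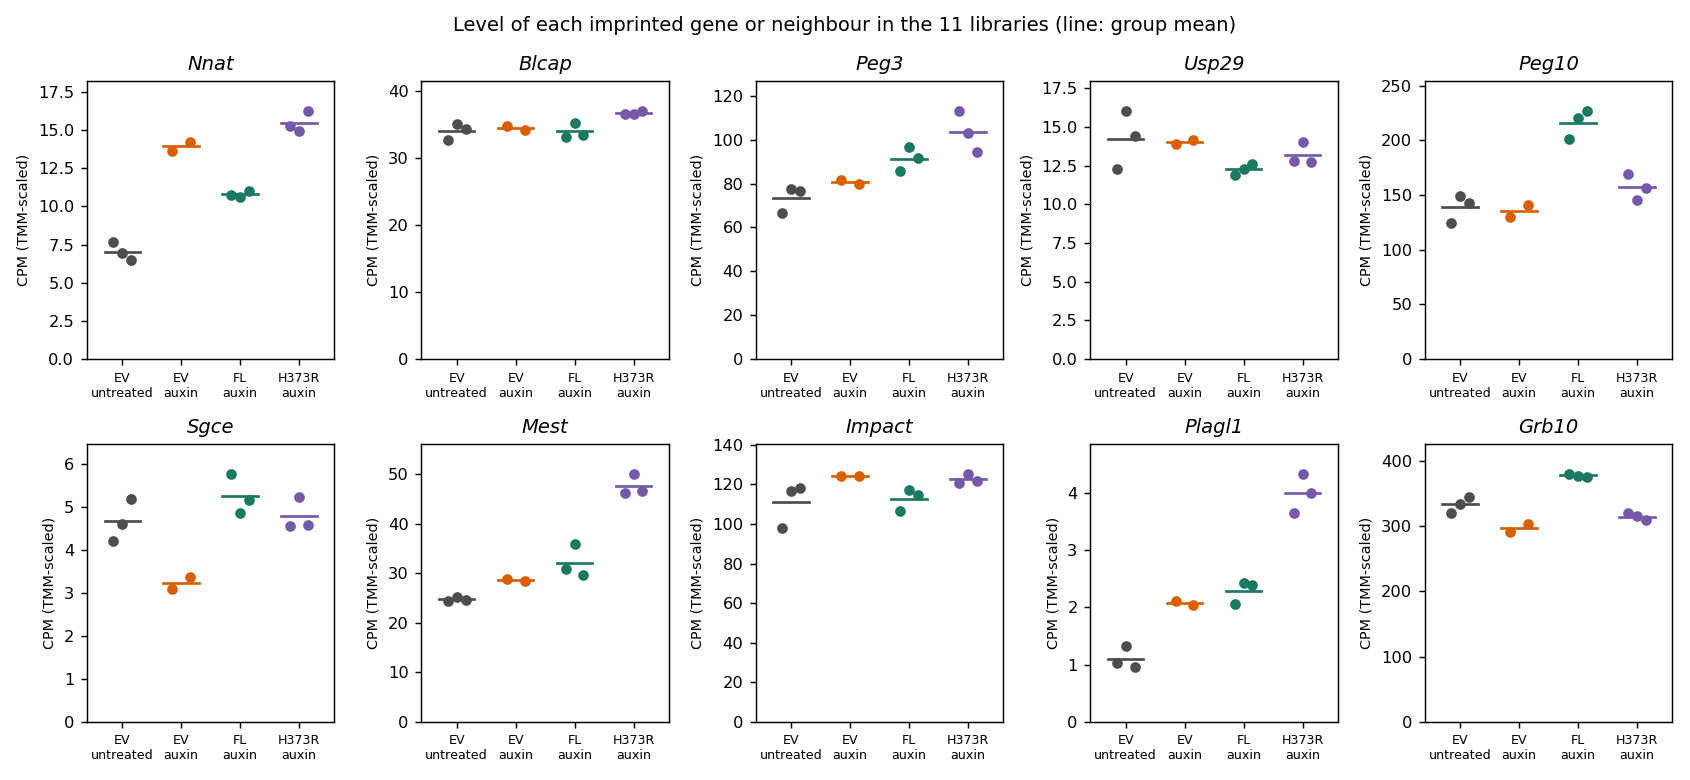
Each panel shows a gene, each point a library (CPM, TMM-scaled, axis from 0) and each line a group mean. Nnat rises from 6.50 to 7.69 in EV untreated to 13.6 and 14.2 in EV auxin while Blcap stays within 32.7 to 37.0 CPM everywhere, and Mest and Plagl1 are highest in H373R auxin.

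EV auxin differs from EV untreated both in auxin and in CTCF depletion. No group without the degron received auxin, so these effects cannot be told apart. With auxin alone (EV auxin against EV untreated), Nnat and Plagl1 rose and Sgce and Grb10 fell. These 4 of 10 calls, at an adjusted p under 0.05 in edgeR's quasi-likelihood test, compare with 20.7% of all tested genes. The median log2 difference was 0.08 over the 10 genes and 0.01 over all tested genes. Without EV untreated replicate 1 all 4 calls were kept.

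With FL CTCF put back (FL auxin against EV auxin), Peg10, Sgce and Grb10 rose and Nnat fell, 4 of 10 against 24.5% of tested genes. With H373R CTCF put back (H373R auxin against EV auxin), Peg3, Sgce, Mest and Plagl1 rose and none fell, 4 of 10 against 21.7% called in either direction and 10% called higher. The median log2 difference over the 10 genes was 0.15 for FL and 0.18 for H373R, and over all tested genes -0.01 and 0.00031. These comparisons share the EV auxin libraries.

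Between the 2 forms of CTCF (H373R auxin against FL auxin), 5 of the 10 genes differed, against 5.96% of tested genes. Nnat, Mest and Plagl1 were higher with H373R, and Peg10 and Grb10 were lower, where 3.14% of tested genes were higher and 2.82% lower. The median log2 difference was 0.12 over the 10 genes and 0.0025 over all. These 5 calls held when each library was left out in turn. The calls over all tested genes were 979 and then ranged from 510 to 2323, so the share beside them is less stable. The 10 genes were also chosen with earlier results of these data known.

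Against EV untreated, FL auxin had 6 genes higher (Nnat, Peg3, Peg10, Mest, Plagl1 and Grb10) and none lower, where 36.9% of tested genes were called and 17.7% were higher. H373R auxin had 4 higher (Nnat, Peg3, Mest and Plagl1) and none lower, where 44.4% were called and 22.3% were higher. Without EV untreated replicate 1 both sets of calls were kept, but Usp29 was then called lower in FL auxin, and Usp29 and Grb10 were called lower in H373R auxin. The 10 genes had a median log2 difference of 0.25 for FL and 0.16 for H373R, beside 0.0016 and 0.0048 over all tested genes. Over the 6 comparisons, 27 of the 60 gene-by-comparison tests were called, and Blcap, Usp29 and Impact were called in none. The share of all tested genes called ran from 5.96% (H373R against FL) to 44.4% (H373R against EV untreated) over these comparisons.

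**Figure D2:**
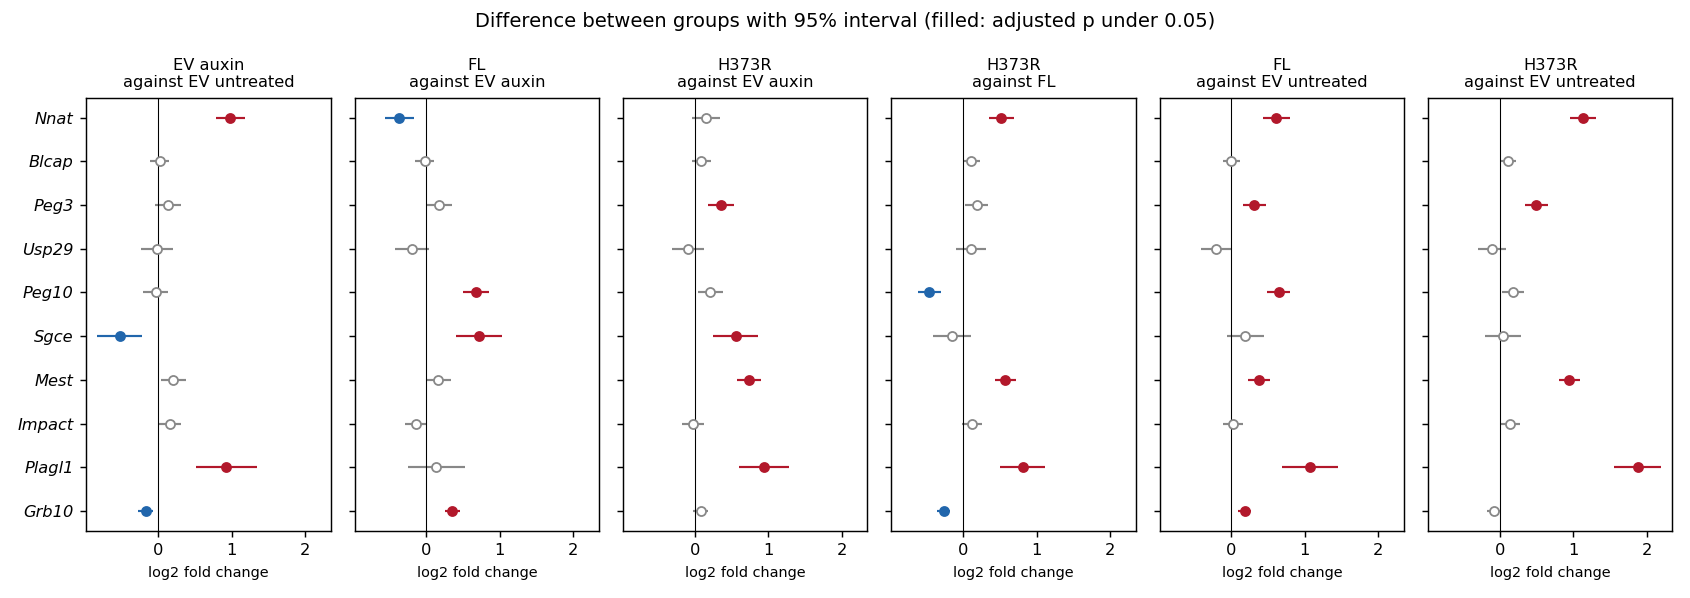
Each panel is a comparison, each point a gene's log2 fold change with its 95% interval (edgeR), filled red where higher and blue where lower at an adjusted p under 0.05. The H373R against FL panel shows 3 genes to the right (Nnat 0.52, Mest 0.58, Plagl1 0.81) and 2 to the left (Peg10 -0.46, Grb10 -0.27).

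Nnat encodes neuronatin, a small membrane protein of the endoplasmic reticulum that is abundant in developing neurons. Its level was 7.69, 6.95 and 6.50 CPM in EV untreated, 13.6 and 14.2 in EV auxin, 10.7, 10.6 and 11.01 in FL auxin, and 15.3, 15.0 and 16.3 in H373R auxin. No libraries of any pair of groups overlapped: EV untreated was lowest, FL auxin in between, and both EV auxin and H373R auxin high. The log2 difference was 0.98 ± 0.092 (SE) between EV auxin and EV untreated, a 1.97-fold higher level (edgeR adjusted p = 1.88e-06). Without EV untreated replicate 1 this difference was 1.05. FL auxin was lower than EV auxin, with a log2 difference of -0.37 ± 0.092 (edgeR adjusted p = 0.00882), a call that was lost without EV auxin replicate 2 (edgeR adjusted p = 0.107, log2 difference -0.32). FL auxin was higher than EV untreated, by 0.61 ± 0.088 (edgeR adjusted p = 7.94e-05). H373R auxin exceeded FL auxin by 0.52 ± 0.081 (edgeR adjusted p = 0.00118), whereas its difference from EV auxin did not pass the test (0.15, interval -0.03 to 0.34). The 6 neural markers summed to 374 to 442 TPM in EV untreated, 418 to 431 in EV auxin, 306 to 352 in FL auxin and 355 to 365 in H373R auxin. That sum was higher in H373R auxin than in FL auxin and lower than in EV auxin, in each case without overlap. Of the 5 neural markers with enough counts to be tested, 0 were called higher and 1 lower in H373R auxin than in FL auxin. Over all tested genes, 5.96% were called in that comparison. The part of these markers in the Nnat levels was not tested.

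Blcap, the gene that surrounds Nnat and encodes a small conserved protein, was at 32.7 to 35.0 CPM in EV untreated, 34.2 and 34.8 in EV auxin, 33.2 to 35.2 in FL auxin and 36.5 to 37.0 in H373R auxin. None of its 6 comparisons passed the test. The 95% interval of its log2 difference between EV auxin and EV untreated was -0.11 to 0.15, which does not reach the interval of Nnat (0.79 to 1.18). Per library, the TPM of Nnat over that of Blcap was 0.391, 0.330 and 0.316 in EV untreated, and 0.652 and 0.693 in EV auxin. It was 0.539, 0.502 and 0.548 in FL auxin and 0.695, 0.682 and 0.732 in H373R auxin. The ratio thus separated EV untreated from every auxin group, and FL auxin from the other auxin groups. On the log2(TPM + 0.1) scale, the ratio differed by 0.96 between EV auxin and EV untreated and by 0.41 between H373R and FL. Each has p = 0.1 in a two-sided exact permutation test, the smallest value that 3 against 3 or 3 against 2 libraries allow, and an adjusted p of 0.15 over the 18 ratio tests. No ratio test can therefore pass 0.05, and the ratios are given as values.

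**Figure D3:**
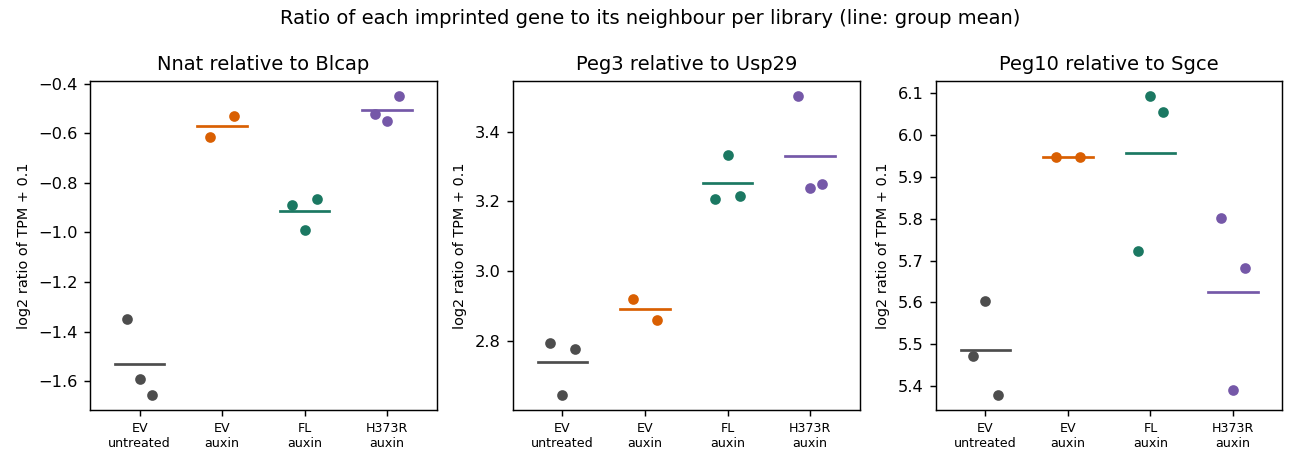
Points are libraries, lines are group means, and the vertical axis is the log2 ratio of TPM + 0.1 of the imprinted gene to its neighbour; the axes do not start at 0. The mean Nnat ratio goes from -1.53 in EV untreated to -0.57 in EV auxin, the Peg3 ratio from 2.74 in EV untreated to 3.33 in H373R auxin, and the Peg10 ratio is 5.95 in EV auxin and 5.96 in FL auxin.

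Peg3 encodes a large protein with Krüppel-type zinc fingers. It was at 66.5, 77.6 and 76.4 CPM in EV untreated, 81.7 and 79.9 in EV auxin, 85.7, 96.8 and 91.5 in FL auxin, and 113, 103 and 94.4 in H373R auxin. The group means thus followed the order EV untreated, EV auxin, FL auxin, H373R auxin, but no neighbouring groups in that order differed by the test, and FL and H373R libraries overlapped. The 1st step was called in 2 of 22 alternatives, and the steps to FL and to H373R in 4 each. Without EV untreated replicate 1 the step to FL was 0.19 (edgeR adjusted p = 0.0236) and that to H373R 0.18 (edgeR adjusted p = 0.0340). H373R auxin was higher than EV auxin by 0.36 ± 0.082 on the log2 scale (edgeR adjusted p = 0.00627). This call was lost without EV auxin replicate 2 and on the log2 TPM scale in limma, where the adjusted p reached 0.0853. Against EV untreated the differences were 0.31 ± 0.074 for FL (edgeR adjusted p = 0.00377) and 0.50 ± 0.073 for H373R (edgeR adjusted p = 6.01e-05). The FL call was lost in limma without a TPM filter (0.26, adjusted p = 0.0609). The differences were 0.24 and 0.42 without EV untreated replicate 1.

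Usp29, a gene of the ubiquitin-specific peptidase family, starts on the other side of the interval printed above. Its level was 12.3, 16.1 and 14.4 CPM in EV untreated, 13.9 and 14.2 in EV auxin, 11.9, 12.3 and 12.6 in FL auxin, and 12.8, 14.1 and 12.7 in H373R auxin. The groups lay close together, and none of its comparisons passed the test. Its values against EV untreated depended on the processing. Without EV untreated replicate 1, Usp29 was lower in FL auxin (-0.30, edgeR adjusted p = 0.00455) and in H373R auxin (-0.21, edgeR adjusted p = 0.0283). With trends in GC content and gene length removed from the counts, the H373R difference was 0.29 (edgeR adjusted p = 0.00187), so no direction is given. The GC content of its exons was 43.2%, the lowest of the 10 genes, and that of Nnat was 59.4%, the highest. Peg3 TPM was 6.42 to 7.17 times that of Usp29 in EV untreated and 7.47 and 7.80 times in EV auxin. It was 9.58 to 10.4 times in FL auxin and 9.74 to 11.7 times in H373R auxin. On the log2 scale the ratio differed from EV auxin by 0.36 in FL and by 0.44 in H373R (two-sided exact permutation test, p = 0.1 each).

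The same domain holds the zinc finger genes Zfp264, which lies 10027 bases from Usp29, and Zim3, which overlaps Usp29. Zfp264 was at 13.6, 14.4 and 16.7 CPM in EV untreated, 17.4 and 15.4 in EV auxin, 8.30, 8.05 and 8.57 in FL auxin, and 11.7, 13.3 and 12 in H373R auxin. FL auxin was lowest with no overlap with any other group. The log2 difference from EV auxin was -0.97 ± 0.11 for FL (edgeR adjusted p = 2.36e-05) and -0.41 ± 0.10 for H373R (edgeR adjusted p = 0.0102, lost without EV auxin replicate 1), while Peg3 was not lower in either. Zim3, low at 0.907 to 2.55 CPM, was higher in H373R than in FL by 0.80 ± 0.23, at the threshold (edgeR adjusted p = 0.04998), a call lost in 15 of 22 alternatives, and it overlaps exons of Usp29.

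Peg10 derives from a retrotransposon of the gypsy type and is required for the placenta. It was at 125, 149 and 142 CPM in EV untreated, 130.2 and 141 in EV auxin, 201, 221 and 227 in FL auxin, and 169.6, 145 and 157 in H373R auxin. FL auxin was above every other library, and the other groups lay close together. The log2 difference between FL auxin and EV auxin was 0.67 ± 0.083, a 1.59-fold higher level (edgeR adjusted p = 4.88e-05). H373R auxin was lower than FL auxin, with a log2 difference of -0.46 ± 0.072 (edgeR adjusted p = 0.00131), a call that limma without a TPM filter did not make (adjusted p = 0.0544). The H373R difference from EV auxin was 0.21 and did not pass the test (interval 0.04 to 0.39, edgeR adjusted p = 0.0753), but it was called in 7 of 22 alternatives.

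Sgce encodes epsilon-sarcoglycan, a membrane protein of the sarcoglycan family. It was at 4.19, 4.6 and 5.18 CPM in EV untreated, 3.08 and 3.36 in EV auxin, 5.77, 4.86 and 5.15 in FL auxin, and 4.56, 5.24 and 4.58 in H373R auxin. EV auxin was lowest without overlap, and the other groups overlapped each other. EV auxin was lower than EV untreated, with a log2 difference of -0.52 ± 0.14 (edgeR adjusted p = 0.0166). This call was lost without EV untreated replicate 3 (-0.43), without either EV auxin library (-0.47 and -0.61), with the compared libraries alone (-0.54, edgeR adjusted p = 0.0520), and in limma without a TPM filter (-0.29, adjusted p = 0.0519). It was kept, at -0.62, without EV untreated replicate 1. FL auxin was higher than EV auxin by 0.71 ± 0.15 (edgeR adjusted p = 0.00261), and H373R auxin by 0.56 ± 0.14 (edgeR adjusted p = 0.0116), the latter lost without either EV auxin library. H373R and FL did not differ by the test (-0.15, interval -0.40 to 0.10).

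The group means of Peg10 and Sgce, which start 98 bases apart, had the same order. From lowest to highest it was EV auxin, EV untreated, H373R auxin and FL auxin. Of the steps between neighbouring groups in that order, only the last passed the test for Peg10. For Sgce only the first passed, a call that was lost in the alternatives named above. Peg10 TPM was 43.8 to 51.6 times that of Sgce in EV untreated, 66.7 and 67.3 times in EV auxin, 55.4 to 72.4 times in FL auxin and 44.2 to 59.2 times in H373R auxin. The log2 ratio differed by 0.46 between EV auxin and EV untreated (two-sided exact permutation test, p = 0.1) and by 0.0095 between FL and EV auxin (p = 1). The 7 primitive endoderm markers had their highest sum in FL auxin, the group where Peg10 was highest. They summed to 18.7 to 19.9 TPM in EV untreated, 22.1 to 22.7 in EV auxin, 63.5 to 68.6 in FL auxin and 40.9 to 45.6 in H373R auxin. Against EV auxin, 7 of 7 were called higher in FL and in H373R, where 24.5% and 21.7% of all tested genes were called. In H373R against FL auxin, 4 of 7 were called lower and 0 higher, where 5.96% were called. The trophoblast markers had their lowest sum in FL auxin, 96.9 to 109 TPM, and their highest in EV untreated, 134 to 142. Single markers did not all follow that sum. Of the 5 tested, 2 were called higher and 1 lower in FL auxin than in EV auxin (24.5% of all tested genes were called). Against EV untreated, 1 was higher and 1 lower in FL auxin (36.9%), and 3 were higher and 1 lower in H373R auxin (44.4%). The part of these cells in the Peg10 and Sgce levels was not tested.

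Mest encodes a protein of the alpha/beta hydrolase family that is known from embryonic mesoderm. It was at 24.5, 25.2 and 24.5 CPM in EV untreated, 28.8 and 28.4 in EV auxin, 30.9, 35.8 and 29.7 in FL auxin, and 46.2, 50.2 and 46.6 in H373R auxin. Every H373R library was above every other library. The log2 difference was 0.74 ± 0.077 from EV auxin (1.67-fold, edgeR adjusted p = 3.40e-05) and 0.58 ± 0.069 from FL auxin (1.49-fold, edgeR adjusted p = 1.09e-04). It was 0.95 ± 0.068 from EV untreated (edgeR adjusted p = 5.81e-08) and 0.93 without EV untreated replicate 1. FL auxin did not differ from EV auxin by the test (0.16, interval -0.0085 to 0.33), but was higher than EV untreated by 0.37 ± 0.071 (edgeR adjusted p = 8.43e-04). EV auxin was above EV untreated without overlap, but the difference did not pass the test (0.21, interval 0.04 to 0.38, edgeR adjusted p = 0.0739). Both differences that did not pass were called in 2 of 22 alternatives each. Copg2, named here because its exons overlap those of Mest on the other strand, was at a mean of 164 CPM in H373R auxin and 152 in FL auxin. Its log2 difference of 0.11 ± 0.049 did not pass the test (edgeR adjusted p = 0.228). The 6 fibroblast markers summed to 51.2 to 55.3 TPM in EV untreated, 47.4 to 52.0 in EV auxin, 63.3 to 71.3 in FL auxin and 62.3 to 67.3 in H373R auxin, where the FL and H373R libraries overlapped.

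Plagl1 encodes a zinc finger transcription factor that restrains cell growth. It was at 1.03, 1.32 and 0.955 CPM in EV untreated, 2.11 and 2.03 in EV auxin, 2.05, 2.43 and 2.40 in FL auxin, and 3.66, 4.34 and 4.0 in H373R auxin. The libraries formed 3 levels: EV untreated low, EV auxin and FL auxin together in the middle, H373R auxin high. EV auxin was higher than EV untreated by 0.93 ± 0.20 on the log2 scale (edgeR adjusted p = 0.00321). H373R auxin was higher than FL auxin by 0.81 ± 0.14 (edgeR adjusted p = 0.00283), and 3.67-fold higher than EV untreated (log2 difference 1.88 ± 0.15, edgeR adjusted p = 1.93e-07). Of the 27 called differences this was the largest. Without EV untreated replicate 1 the differences from EV untreated were 0.87 for EV auxin and 1.83 for H373R.

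Grb10 encodes an adaptor protein that binds insulin and growth factor receptors and limits their signal. It was at 321, 335 and 345 CPM in EV untreated, 291 and 303 in EV auxin, 381, 378 and 376 in FL auxin, and 319.9, 315 and 309 in H373R auxin. FL auxin was above every other library and EV auxin was lowest, and the shifts were small. FL auxin was higher than EV auxin by 0.35 ± 0.048 on the log2 scale, 1.27-fold (edgeR adjusted p = 1.27e-04), and H373R auxin was lower than FL auxin, with a log2 difference of -0.27 ± 0.043 (edgeR adjusted p = 0.00147). The fall between EV untreated and EV auxin (-0.17 ± 0.048, edgeR adjusted p = 0.0207) was lost without EV untreated replicate 3, without either EV auxin library, with the compared libraries alone, and in limma on TPM. It was -0.21 without EV untreated replicate 1. FL auxin was higher than EV untreated by 0.18 ± 0.042 (edgeR adjusted p = 0.00353), and by 0.15 without EV untreated replicate 1. That call was lost in limma on TPM (highest adjusted p = 0.0698). H373R auxin did not differ from EV untreated by the test (-0.08), but was called lower without EV untreated replicate 1 (-0.12, edgeR adjusted p = 0.0172).

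Impact (chr18:12955852-12992950, plus strand) encodes a regulator of translation that acts against the kinase GCN2. It was at 97.9, 117 and 118 CPM in EV untreated, 124 in both EV auxin libraries, 107, 117 and 114 in FL auxin, and 121, 126 and 122 in H373R auxin. EV untreated replicate 1 was the lowest library, and none of the 6 comparisons passed the test. The largest of its log2 differences was 0.17 ± 0.072, between EV auxin and EV untreated (edgeR adjusted p = 0.119), and it was 0.07 without that library. With GC and length trends removed this difference was 0.19 and was called (edgeR adjusted p = 0.00100). In that setting the H373R difference from EV untreated was 0.24 (edgeR adjusted p = 1.01e-05), a call made in 6 of 22 alternatives.

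Across the 11 libraries on log2 CPM, Mest and Plagl1 were the most alike of the 10 genes (Pearson r = 0.94), followed by Nnat and Plagl1 (r = 0.90). Peg10 varied most like Grb10 (r = 0.83). The direct neighbours were less alike: r was 0.58 for Nnat and Blcap, -0.24 for Peg3 and Usp29, and 0.58 for Peg10 and Sgce. Among 12725 genes whose mean log2 CPM was 1 or more, the closest to Nnat were Dlx2 (r = 0.99) and Tmem191c (r = 0.99). Dlx2, a homeobox gene, had group means of 0.778 CPM in EV untreated, 1.99 in FL auxin, 4.08 in EV auxin and 5.64 in H373R auxin, the order that Nnat had. The closest to Peg3 were Retreg1 (r = 0.96) and Siae (r = 0.96), to Peg10 Trim6 (r = 0.95) and Socs5 (r = 0.95), and to Mest Cln8 (r = 0.98) and Prune1 (r = 0.97). Libraries of a group share their condition, so these values describe likeness only.

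Of 55 other genes listed for the same chromosomal domains, 52 were in the table and 39 could be tested. With auxin alone 2 were higher and 5 lower, where 20.7% of all tested genes were called. Between H373R and FL only Zfp264 and Zim3 were called, both higher, where 5.96% of all tested genes were called. Neither share stands above that of all genes. Their median log2 difference was -0.02 and 0.06 in these comparisons. The named calls with auxin were Calcr, Stx11 and Utrn. Calcr, the calcitonin receptor gene of the Peg10 region, lies 909636 bases from Sgce. Its level was 0.666, 0.538 and 0.845 CPM in EV untreated, 1.71 and 1.83 in EV auxin, 1.67, 1.52 and 1.38 in FL auxin, and 2.07, 1.93 and 1.81 in H373R auxin. It rose by 1.35 ± 0.22 on the log2 scale with auxin (edgeR adjusted p = 4.24e-04) while the Peg10 difference of -0.03 (interval -0.21 to 0.14) did not pass it. In the Plagl1 region, Stx11 rose by 0.58 ± 0.15 (edgeR adjusted p = 0.0113), a call lost without EV auxin replicate 1 and with the compared libraries alone. Utrn, the utrophin gene of that region, fell by 0.30 on the log2 scale, with an SE of 0.056 (edgeR adjusted p = 0.00124).

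Of 24 imprinted genes of other domains, 23 were in the table and 19 were tested. Auxin alone gave 2 higher and 4 lower, and H373R against FL gave 2 higher and 2 lower, with median log2 differences of -0.02 and 0.04. Of all tested genes, 20.7% and 5.96% were called in these comparisons. After auxin, Trappc9 fell by 0.59 on the log2 scale (SE 0.096, edgeR adjusted p = 4.35e-04), Commd1 by 0.40 (SE 0.056, edgeR adjusted p = 9.43e-05) and Jade1 by 0.23 (SE 0.057, edgeR adjusted p = 0.00891). The Jade1 call was lost without either EV auxin library and in limma. Between H373R and FL, Zdbf2 was lower (-0.46 ± 0.086, edgeR adjusted p = 0.00446) and Mcts2 higher (0.33 ± 0.080, edgeR adjusted p = 0.0231). The Zdbf2 call was lost in limma, and that of Mcts2 without replicate 1 or 3 of either FL auxin or H373R auxin. Peg13, a noncoding RNA gene within the Trappc9 region, had 28, 30 and 28 counts in H373R auxin and 6, 5 and 5 in FL auxin. It had 0 and 1 in EV auxin and 3, 1 and 3 in EV untreated, at or under the 3 counts taken as the floor per library, so no fold against these groups is given. The H373R level was higher than the FL level by 2.02 ± 0.30 on the log2 scale (edgeR adjusted p = 9.16e-04). It was called in all 18 alternatives that gave a result, but the difference ranged from 0.67 to 2.15. With so few FL counts its size is imprecise.

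Of 10 genes for the upkeep of imprints, 2 were higher and 0 lower with auxin alone, and 1 was higher with H373R against FL, where 20.7% and 5.96% of all tested genes were called. Dppa3, which protects methylation in the early embryo, was at 16.1, 14.9 and 14.4 CPM in EV untreated, 31.5 and 31.3 in EV auxin, 12.4, 13.2 and 11.6 in FL auxin, and 16.4, 15.7 and 16.4 in H373R auxin. EV auxin stood alone at the high level. The log2 difference was 1.05 ± 0.075 with auxin (edgeR adjusted p = 9.27e-08) and 0.39 ± 0.076 between H373R and FL (edgeR adjusted p = 0.00645). Zfp57, the zinc finger gene that recognises methylated control regions, rose by 0.22 ± 0.054 with auxin (edgeR adjusted p = 0.00783), a call lost without EV auxin replicate 2 and with the compared libraries alone.

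**Figure D4:**
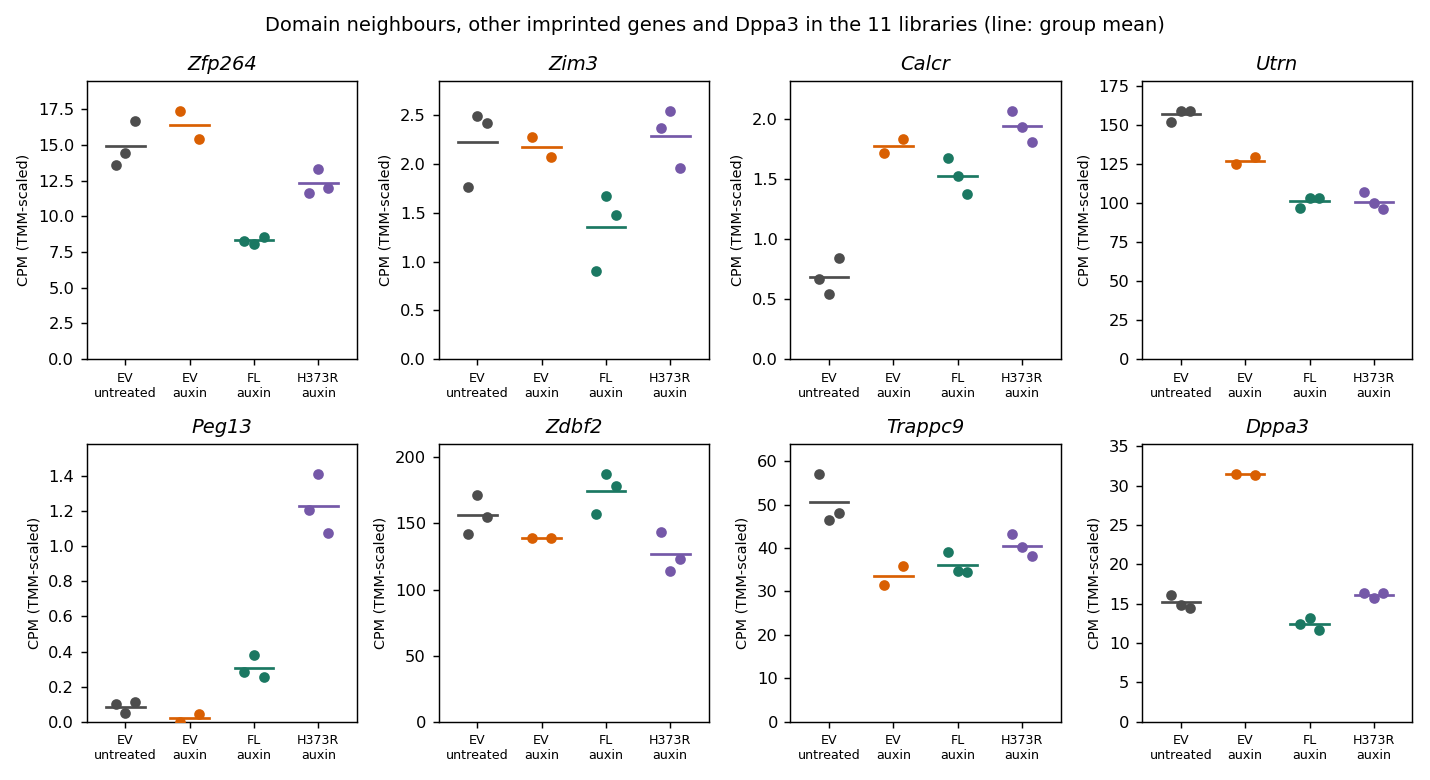
Each panel is a gene of the domains, of other imprinted domains or of imprint upkeep, each point a library (CPM, TMM-scaled, axis from 0) and each line a group mean. Zfp264 is lowest in FL auxin (8.05 to 8.57 CPM), Peg13 highest in H373R auxin (1.08 to 1.42 CPM) and Dppa3 highest in EV auxin (31.3 and 31.5 CPM).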

How the data were processed

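RNA-seq of 11 libraries in 4 groups was analysed. The authors deposited raw counts per gene symbol and TPM values per gene for the same libraries. Per the submitters' processing notes, featureCounts, Subread 2.0.3 and DESeq2 were used with mm10 (GRCm38). The aligner, annotation and strand setting are not given in the sources used here. Within each library the deposited TPM followed the counts with a fixed length per gene (relative difference at most 7.22e-15 over 18171 genes), so both hold the same reads. Numbers 1 and 2 of EV auxin were analysed.

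The counts went into edgeR 4.0.16 under R 4.3.3 (TMM, filterByExpr by group, group means over all 11 libraries, quasi-likelihood F test, Benjamini-Hochberg over 16420 genes, threshold 0.05), with which the 2 EV auxin libraries borrow the spread of the other groups. Log2 differences carry the model's SE and 95% intervals. CPM are TMM-scaled. Pair ratios used log2(TPM + 0.1) and exact permutation tests. The methods were tested on simulated counts. Gene positions came from GENCODE M21 and promoters from RefSeq.

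The genes and lists were chosen with earlier results of these data known. Named besides the 10 genes were at most 3 called genes per list, by smallest adjusted p, in EV auxin against EV untreated and in H373R against FL, and the 2 genes closest to Nnat, Peg3, Peg10 and Mest across libraries. Alternatives were RLE scaling, DESeq2 1.42.0, other filters, a fit of the compared libraries alone, a block for the replicate number, removal of GC and length trends, limma 3.58.1 on TPM, and leaving out each library. Deviations of same-numbered libraries from their group means had Pearson r from -0.087 to 0.28. It was above 0.1 in only some of the pairs, so the numbers were not taken to pair them.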

Additional observations from a re-analysis of the deposited data

How the results depend on the processing

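Of the 27 called differences among the 10 genes, 19 were called under all 22 alternatives and 0 changed sign. The genes called numbered 4 with auxin alone, 2 with the compared libraries alone, 7 with GC and length trends removed, 2 in limma without a TPM filter, and 2 to 5 with a library left out (2 without EV untreated replicate 3 or either EV auxin library). They numbered 4 for FL against EV auxin (7 with the replicate block and trends removed, 3 to 6 with a library left out) and 4 for H373R against EV auxin (3 in limma, 6 with trends removed, 2 to 5 with a library left out, 2 without EV auxin replicate 2). They numbered 5 for H373R against FL (4 in limma without a TPM filter, 7 with trends removed, 5 to 6 with a library left out), 6 for FL against EV untreated (4 in limma without a TPM filter, 8 with the block and trends removed, 6 to 7 with a library left out), and 4 for H373R against EV untreated (8 with trends removed, 7 with the block and trends removed, 4 to 6 with a library left out). The calls over all tested genes moved as well. With auxin alone they were 3392, and 2016 with the compared libraries alone and 5204 with trends removed. For H373R against FL they were 979, and 586 in limma without a TPM filter and 2306 with trends removed. A change in the number called among the 10 is therefore not by itself a result about these genes. Differences that were not called changed sign as follows, on the log2 scale. With trends removed, EV auxin against EV untreated gave -0.037 for Blcap and 0.12 for Usp29. H373R against EV auxin gave -0.011 for Nnat, 0.17 for Usp29 and 0.051 for Impact. Usp29 gave 0.11 for FL and 0.29 for H373R against EV untreated, and Grb10 0.035 for H373R. With the replicate block and trends removed, these values were -0.036 and 0.10, then -0.017, 0.18 and 0.041, then 0.11, 0.28 and 0.035, and Peg10 gave 0.0050 for EV auxin against EV untreated and Usp29 0.0042 for FL against EV auxin. In limma, Usp29 gave 0.0080 (pseudocount 1, with or without a filter) and 0.012 (pseudocount 0.1) with auxin alone, and Impact -0.013 for FL against EV untreated at both. With the compared libraries alone Blcap gave 0.0019 for FL against EV untreated. With a library left out, EV auxin against EV untreated ranged from -0.020 to 0.037 for Blcap, -0.12 to 0.070 for Usp29 and -0.12 to 0.024 for Peg10. FL against EV untreated ranged from -0.033 to 0.025 for Blcap and -0.063 to 0.073 for Impact, and H373R against EV untreated from -0.055 to 0.13 for Sgce. The log2 ratio of Peg10 to Sgce between FL and EV auxin was -0.029 from counts, -0.040 over same-numbered replicates and -0.059 to 0.13 with a library left out. That of Peg3 to Usp29 between H373R and FL ranged from -0.0066 to 0.12. The cause was not tested.

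The replicate block alone lost no call of the 10 genes, and called 6 in H373R against EV untreated, where Peg10 and Impact were added. In that check, 7 of 11 libraries correlated best with their own number, a hint from the data and not from the design. Over all tested genes, the calls with auxin alone were 3392 and ranged from 1569 without EV auxin replicate 2 to 5444 without EV untreated replicate 1. For H373R against FL the 979 calls ranged from 510 to 2365, with 2323 without EV untreated replicate 1, which enters that fit only through the shared spread. FL against EV auxin ranged from 1879 to 5949 about 4016, and H373R against EV auxin from 1502 to 5909 about 3570. Against EV untreated, FL ranged from 4687 to 7706 about 6052 and H373R from 5874 to 8927 about 7292. In limma on log2(TPM + 1), 953 of 3576 calls for FL against EV auxin were higher, against 1816 of 4016 in edgeR, and 478 of 729 for H373R against FL, against 516 of 979. For H373R against EV auxin, 833 of 2551 were higher in limma and 1647 of 3570 in edgeR. Plagl1 differences were smaller in limma with a pseudocount of 1 (0.40 with auxin alone, against 0.93 in edgeR), since that scale understates changes of low genes. Of 16 called differences of the other named genes, tried under the same alternatives after the data had been seen, 9 were called under all that gave an adjusted p and 0 changed sign. The low counts of Plagl1, Sgce, Zim3 and Peg13 limit the precision of their values.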
